A study of Rattus norvegicus with 12 samples.

Results

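The cytosolic heat shock chaperones examined here are 10 genes of the rat liver: Hspa1a, Hspa8, Hsph1, Dnajb1, Dnaja1, Hspb1, Hsp90ab1, Hspd1, Hspe1 and Hsf1. Their probes were found by the gene name that the scanner files give, with a suffix for predicted or mapped genes dropped and Hsp105 accepted for Hsph1. This found 17 probes of 9 genes among the 41012 non-control probes of the array. The files carry Hsp90ab1 under the older name Hspcb, so its 2 probes were added through their accession, which makes 19 probes for the 10 genes. All 19 passed the filter on dim probes, and 28173 probes of the array passed in all. The list is named for the cytosol, but Hspd1 and Hspe1 encode mitochondrial proteins and Hsf1 a transcription factor.

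The series compared 4 groups of adult Sprague-Dawley rats 8 to 10 weeks old, with 3 arrays per group: females given dexamethasone, females given vehicle, males given dexamethasone and males given vehicle. All animals of all 4 groups had been adrenalectomized, so the vehicle rats were without their main source of corticosterone, and females were in the first day of diestrus. Dexamethasone, a synthetic glucocorticoid, was injected into the peritoneum at 1 mg/kg, vehicle was phosphate-buffered saline, and livers were taken 6 h later. An array received 500 ng of a pool made from the livers of 3 rats, and each group used 9 rats. The SD and n = 3 given throughout therefore describe arrays of pools, not single rats, and the SD includes differences between slides.

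Heat shock proteins of the HSP70 and HSP90 families bind unfolded or unstable proteins and release them in cycles driven by ATP. J proteins deliver clients to HSP70, exchange factors reset it, and the chaperonins enclose a protein while it folds. The glucocorticoid receptor is itself a client: HSP70, HSP90 and their co-chaperones hold it in the cytosol in the form that binds hormone. Heat shock factor HSF1 binds repeated GAA units, called heat shock elements, in the promoters of many of these genes when cells are stressed.

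Levels below are log2 of the processed spot intensity minus the log2 75th percentile of the same array, so that 0 is the brightness of that percentile. A level is compared between arrays for the same probe, never between probes. Between 53.0% and 61.8% of spots were well above background on the 4 arrays of slide 5, which hold replicate 3 of every group, against 62.7% to 69.7% on the 8 arrays of the other 4 slides. No spot was saturated on any array. The known glucocorticoid targets Fkbp5, Tsc22d3, Per1 and Tat were called higher after dexamethasone in both sexes (4 of 4 in each), with log2 differences of 1.98 to 4.54 in females and 2.46 to 4.17 in males.

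At 6 h after dexamethasone a part of this chaperone group was higher in both sexes, led by the inducible HSP70 gene Hspa1a. In females 6 of the 10 genes were called higher and 0 lower (limma, Benjamini-Hochberg adjusted p under 0.05 over all 28173 probes, brightest probe of each gene). Drug and slide cannot be fully told apart in females. Their dexamethasone replicates 1 and 2 are the only arrays of slide 4 and of its scan day. With slide as a fixed block 3 of the 10 were called in females, a fit in which 13.6% of all genes were called. In the main fit, without a block, 25.1% of all 12138 genes named through RefSeq were called in females, 12.3% higher and 12.8% lower. In males 5 of the 10 were called higher and 0 lower, where 21.3% of all genes were called, 9.64% higher and 11.7% lower. Hspa1a, Hspa8, Hspd1 and Hspe1 were called in both sexes, Hsph1 and Dnajb1 in females, and Hsf1 in males. The median log2 difference of the 10 genes was 0.73 in females and 0.70 in males, against medians over all genes of -0.05 in females and -0.02 in males. Dnaja1, Hspb1 and Hsp90ab1 were called in neither sex. All dexamethasone arrays lay above all vehicle arrays for 6 of the 10 genes in females and 7 in males. They lay below them for 0 in females and 1 in males. Such non-overlap was common over all genes, with 21.8% above and 22.8% below in females, and 17.2% and 20.4% in males. Counted by probe, 13 of 19 were called higher in females and 8 of 19 in males, and 0 lower in either. Over all 28173 probes, 23.9% were called in females (3354 higher, 3384 lower) and 19.7% in males (2600 higher, 2952 lower). Probes of 1 gene are not independent, and Hspa8 and Hspd1 have 4 each.

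**Figure D1:**
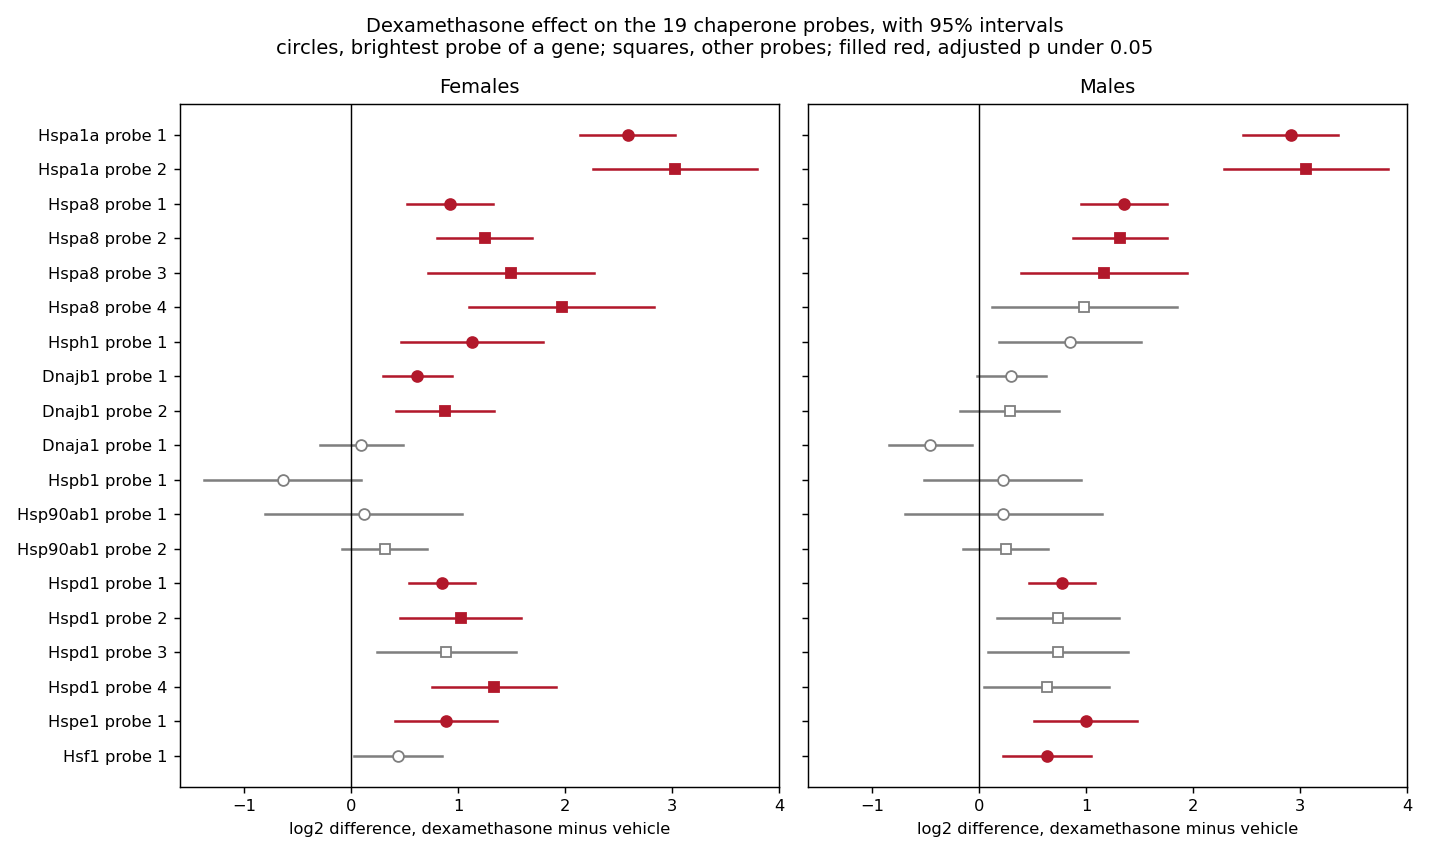
Log2 difference between dexamethasone and vehicle livers (horizontal axis) for each of the 19 probes, in females (left) and males (right), with 95% intervals. Filled red symbols are probes called at an adjusted p under 0.05, circles the brightest probe of each gene and squares its other probes. Both Hspa1a probes lie between 2.59 and 3.05, while the Dnaja1, Hspb1 and Hsp90ab1 probes are open in both panels.

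Hspa1a encodes the stress-inducible HSP70, which is scarce in resting cells. Its first probe, printed at 10 spots on each array, had levels of 0.53, 0.28 and 0.20 in dexamethasone females, against -2.36, -1.84 and -2.55 in vehicle females. In males the levels were 0.34, 0.59 and 0.34 after dexamethasone, against -2.34, -2.49 and -2.62 after vehicle. Every dexamethasone array lay above every vehicle array, and the groups of each drug state overlapped between the sexes. The difference was 2.59 ± 0.20 (SE) in females, or 6.00-fold (adjusted p = 2.47e-05), and 2.91 ± 0.20 in males, or 7.52-fold (adjusted p = 1.11e-05). The SD among the 10 spots of 1 array had a median of 0.10, which is smaller than the SD between arrays in every group (0.14 to 0.36).

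The other Hspa1a probe reads a different stretch and gave nearly the same differences, 3.03 ± 0.35 in females and 3.05 ± 0.35 in males. It was well above background on all 6 dexamethasone arrays but on 2 of 3 vehicle arrays in each sex, so its vehicle level rests partly on dim spots. With the local background removed by another method (normexp with an offset), the differences of the first probe shrank to 1.62 in females and 1.83 in males and stayed called. The sequence of the second probe is shown because it carries the largest difference of the group:
Hspa1a probe 2: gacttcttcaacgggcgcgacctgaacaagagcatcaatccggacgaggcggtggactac

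Hspa8 encodes HSC70, the constitutive HSP70 that cells use for routine folding and for uncoating clathrin vesicles. Its brightest probe had levels of 6.54, 6.63 and 6.88 in dexamethasone females, against 5.54, 5.84 and 5.91 in vehicle females. In males it had 6.93, 7.01 and 7.38 after dexamethasone and 5.70, 5.91 and 5.67 after vehicle. No dexamethasone array overlapped with a vehicle array of either sex. Hspa8 rose by 0.92 ± 0.18 in females (adjusted p = 0.00475) and by 1.35 ± 0.18 in males (adjusted p = 5.65e-04). A fixed block for slide ended the call in females (0.98, adjusted p = 0.0633).

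All 4 Hspa8 probes pointed the same way. Their differences ranged from 0.92 to 1.97 in females, where 4 of 4 were called, and from 0.98 to 1.35 in males, where 3 of 4 were called. The probe with the largest female difference, probe 4, was also the one not called in males (0.98 ± 0.39, adjusted p = 0.111), but the effect in females minus that in males, 0.99 ± 0.55, missed the threshold too (adjusted p = 0.566).

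Hspa8 has many processed pseudogenes, and 2 further probes of the array share long stretches with Hspa8 probes. A probe for the pseudogene Hspa8-ps18 shares 49 of the 54 bases where it overlaps with Hspa8 probe 3. Without the mismatched first base of probe 3, their alignment of 53 positions has 4 differences. The pair is shown with those 4 bases in capitals, because transcripts of either could bind both:
Hspa8 probe 3: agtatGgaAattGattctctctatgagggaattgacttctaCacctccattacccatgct
Hspa8-ps18 probe: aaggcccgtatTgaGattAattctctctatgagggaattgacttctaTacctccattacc
The pseudogene probe was higher after dexamethasone by 1.34 ± 0.38 in females (adjusted p = 0.0266) and 1.26 ± 0.38 in males (adjusted p = 0.0390), next to 1.49 and 1.17 for Hspa8 probe 3. A probe that the files give under an accession only shares 35 unbroken bases with Hspa8 probe 2 and was higher by 1.94 ± 0.20 in females and 1.39 ± 0.20 in males. How far these probes read Hspa8 RNA was not tested.

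Hsph1 encodes HSP110, a nucleotide exchange factor that lets HSP70 release its client. Levels were 0.12, 0.34 and 0.18 in dexamethasone females, against -0.83, -0.63 and -1.27 in vehicle females. In males they were 0.49, 0.21 and -0.06 after dexamethasone and -0.26, -0.29 and -1.36 after vehicle. The groups did not overlap in either sex, and the lowest vehicle array of each sex was the one on slide 5. Hsph1 rose by 1.13 ± 0.30 in females (adjusted p = 0.0210). The male difference of 0.85 ± 0.30 missed the threshold (adjusted p = 0.0736). It was called with slide as a random block (0.91, adjusted p = 0.00811) and was 0.49 without the slide 5 vehicle array (adjusted p = 0.208). The female call was lost without vehicle replicate 3 (0.94, adjusted p = 0.0609), dexamethasone replicate 1 (1.17, adjusted p = 0.0503) or dexamethasone replicate 2 (1.06, adjusted p = 0.0736).

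**Figure D2:**
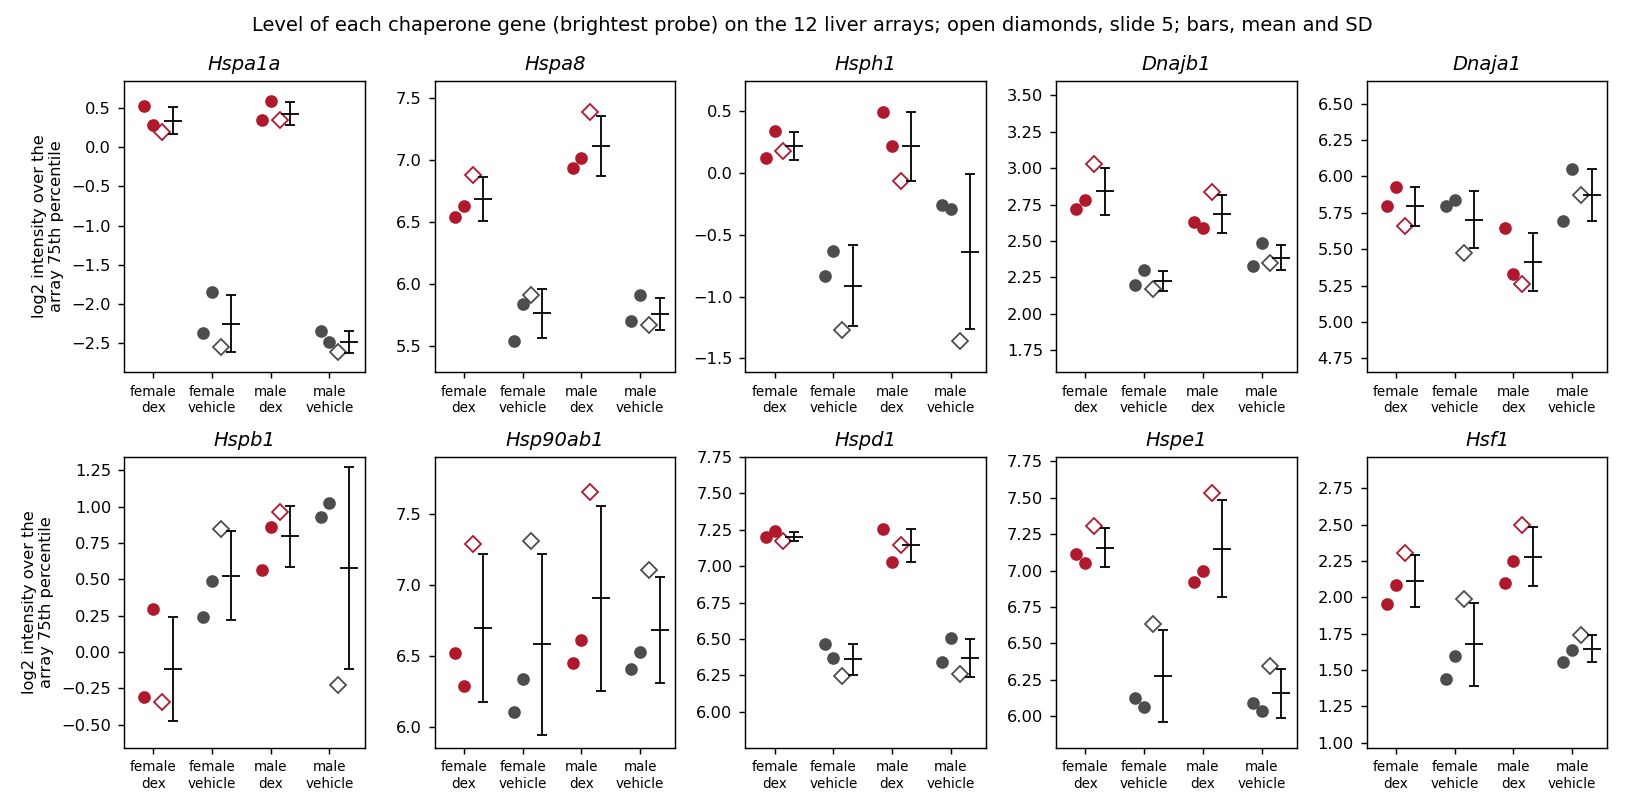
Level of the brightest probe of each gene on the 12 arrays (vertical axes, log2 intensity over the array's 75th percentile, each with its own range), for dexamethasone and vehicle livers of females and then of males. Open diamonds are the arrays of slide 5 and the black marks give the mean and SD of 3 arrays. In both sexes the dexamethasone arrays lie above the vehicle arrays for Hspa1a, Hspa8, Hsph1, Dnajb1, Hspd1 and Hspe1. The diamonds of Hsp90ab1 lie above the other arrays in all 4 groups.

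Dnajb1 encodes HSP40, the J protein that works with inducible HSP70 under stress. Its brighter probe had levels of 2.72, 2.78 and 3.03 in dexamethasone females, against 2.20, 2.30 and 2.17 in vehicle females. Males showed 2.63, 2.59 and 2.84 after dexamethasone and 2.33, 2.48 and 2.35 after vehicle. The groups did not overlap in either sex, with a wider gap in females. Dnajb1 rose by 0.62 ± 0.15 in females (adjusted p = 0.0119), and the second probe gave 0.87 ± 0.21 (adjusted p = 0.0124). In males the values were 0.30 ± 0.15 and 0.28 ± 0.21 (adjusted p = 0.195 and 0.411). The effect in females minus that in males was 0.32 ± 0.21 (adjusted p = 0.609). A fixed block for slide gave 0.78 in females and ended the call (adjusted p = 0.0544).

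Dnaja1 encodes a J protein that works with HSC70, among others on the steroid receptors. Its levels were 5.80, 5.93 and 5.66 in dexamethasone females and 5.79, 5.84 and 5.48 in vehicle females, which overlap. In males the 3 dexamethasone arrays (5.64, 5.33 and 5.26) lay below the 3 vehicle arrays (5.69, 6.05 and 5.87). The differences were 0.09 ± 0.17 in females (adjusted p = 0.742) and -0.46 ± 0.17 in males (adjusted p = 0.0971). The male difference was called, as lower, with slide as a random block (-0.51, adjusted p = 0.0146), as a fixed block (-0.56, adjusted p = 0.0380) and with scan day as a block (-0.59, adjusted p = 0.0196). It was the only gene of the 10 with a lower value called in males under any of those settings.

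Hspb1 encodes the small heat shock protein HSP27 (HSP25 in rodents), which holds unfolded proteins without using ATP. The probe was printed at 10 spots, and the SD among spots of 1 array had a median of 0.053. Levels were -0.31, 0.29 and -0.34 in dexamethasone females and 0.24, 0.49 and 0.85 in vehicle females, which overlap on 1 array. In males they were 0.56, 0.86 and 0.96 after dexamethasone and 0.93, 1.03 and -0.22 after vehicle, where replicate 3 was far below replicates 1 and 2. The differences were -0.64 ± 0.33 in females (adjusted p = 0.186) and 0.22 ± 0.33 in males (adjusted p = 0.727). Without vehicle replicate 3 the male value was -0.18 (adjusted p = 0.704). Within slide 5 alone, dexamethasone minus vehicle was -1.19 in females and 1.19 in males, and within slide 1 it was -0.46 in males.

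Hsp90ab1 encodes HSP90 beta, the constitutive HSP90 of the cytosol. Its brighter probe had levels of 6.52, 6.29 and 7.29 in dexamethasone females, against 6.10, 6.34 and 7.31 in vehicle females. In males it had 6.45, 6.62 and 7.65 after dexamethasone and 6.41, 6.53 and 7.11 after vehicle. The highest array of each of the 4 groups was the one on slide 5. The second probe, with levels of 5.42 to 6.16 on the 12 arrays, was lowest on slide 5 in 3 of 4 groups, so the 2 probes moved opposite ways on that slide. Neither probe was called after dexamethasone, with differences of 0.12 ± 0.42 and 0.31 ± 0.18 in females (adjusted p = 0.868 and 0.238), and 0.23 ± 0.42 and 0.25 ± 0.18 in males (adjusted p = 0.782 and 0.412). The 95% interval of the second probe, the more precise one, ran from -0.09 to 0.71 in females and from -0.15 to 0.64 in males. Their sequences are given because the probes disagree:
Hsp90ab1 probe 1: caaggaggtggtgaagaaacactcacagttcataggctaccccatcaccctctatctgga
Hsp90ab1 probe 2: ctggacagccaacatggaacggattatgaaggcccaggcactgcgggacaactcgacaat

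Hspd1 and Hspe1 encode HSP60 and HSP10, the barrel and the lid of the mitochondrial chaperonin. In the RefSeq promoter table they lie head to head on opposite strands, and their 300-base promoters share 211 bases. The brightest Hspd1 probe had levels of 7.20, 7.24 and 7.17 in dexamethasone females, against 6.46, 6.37 and 6.25 in vehicle females. In males it had 7.26, 7.03 and 7.14 after dexamethasone and 6.34, 6.51 and 6.26 after vehicle. The groups stood well apart, with SDs of 0.03 to 0.13. Hspd1 rose by 0.84 ± 0.14 in females (adjusted p = 0.00182) and by 0.77 ± 0.14 in males (adjusted p = 0.00317). In males the call was lost with the authors' deposited values (0.58, adjusted p = 0.0565).

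Hspe1 followed with levels of 7.11, 7.05 and 7.31 in dexamethasone females, against 6.12, 6.06 and 6.64 in vehicle females. Males showed 6.92, 7.0 and 7.53 after dexamethasone and 6.09, 6.03 and 6.35 after vehicle. The slide 5 array was again the highest of its group in all 4 groups, and no dexamethasone array overlapped with a vehicle array. Hspe1 rose by 0.89 ± 0.22 in females (adjusted p = 0.0142) and by 0.99 ± 0.22 in males (adjusted p = 0.00887). Within slide 5 the difference was 0.67 in females and 1.19 in males. The female call was lost without vehicle replicate 1 (0.81, adjusted p = 0.0531) or 2 (0.78, adjusted p = 0.0592), and with slide as a fixed block (0.70, adjusted p = 0.0571).

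The other 3 Hspd1 probes differed by 0.89 to 1.33 in females, where 2 of the 3 were called, and by 0.63 to 0.73 in males, where 0 of 3 were called. The 1.33 is that of probe 4, which matches a probe for the pseudogene Hspd1-ps7 at 37 of 40 aligned positions. The pseudogene probe differed by 1.00 ± 0.25 in females (adjusted p = 0.0148) and 0.36 ± 0.25 in males (adjusted p = 0.370). How far the pseudogene probe and probe 4 read the same RNA was not tested. Probes 2 and 3 read almost the same stretch: over 56 aligned positions they match at 54, with 1 substitution, in capitals here, and 1 base missing from probe 3:
Hspd1 probe 2: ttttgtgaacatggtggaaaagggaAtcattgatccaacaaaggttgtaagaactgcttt
Hspd1 probe 3: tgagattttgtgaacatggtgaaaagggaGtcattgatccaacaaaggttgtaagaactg
They are therefore not independent readings of Hspd1, and their differences (1.02 and 0.89 in females, 0.73 and 0.73 in males) count as 1 measurement made by a pair of oligos. A further probe of the array is the exact reverse complement of the 60 bases of Hspd1 probe 1 and so reads the opposite strand. It was well above background on all 12 arrays and was not called, with a difference of -0.02 ± 0.38 in females (adjusted p = 0.979) and 0.55 ± 0.38 in males (adjusted p = 0.381).

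Hsf1 encodes the transcription factor that drives the heat shock response, which is controlled mainly through the protein and not the amount of its RNA. Levels were 1.95, 2.08 and 2.31 in dexamethasone females, against 1.44, 1.60 and 1.99 in vehicle females, and overlapped on 1 array. In males they were 2.10, 2.25 and 2.49 after dexamethasone and 1.56, 1.64 and 1.74 after vehicle, with no overlap. The differences were 0.44 ± 0.19 in females (adjusted p = 0.115) and 0.63 ± 0.19 in males (adjusted p = 0.0365). This male call was the least stable of the 11 in both sexes, since it was lost in 10 of 28 other settings (adjusted p up to 0.122), among them 7 of the 12 that leave out 1 array. In females the difference was called with the replicate block (0.44, adjusted p = 0.0251), with normexp (0.46, adjusted p = 0.0331) and without vehicle replicate 3 (0.60, adjusted p = 0.0420).

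The sexes were then set against each other. No member was called for a female minus male difference of the dexamethasone effect (0 of 10), where 0.033% of all genes were called. The differences of the 10 genes ran from -0.86 for Hspb1 (SE 0.47, adjusted p = 0.563) to 0.55 for Dnaja1 (SE 0.25, adjusted p = 0.507). After vehicle 0 of 10 members differed between females and males, with 2.02% of all genes called, and the values ran from -0.28 to 0.23. After dexamethasone 0 of 10 were called, with 2.54% of all genes called, and the values ran from -0.91 to 0.38. At an unadjusted p under 0.05, limma gave 1 member for the difference of effects (Dnaja1), 0 after vehicle and 2 after dexamethasone (Hspa8 and Hspb1), where 9.23%, 10.4% and 15.8% of all genes passed that threshold.

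For Hspd1 the 95% interval of the female minus male effect ran from -0.37 to 0.51, for Hspa1a from -0.95 to 0.30 and for Hspa8 from -0.995 to 0.14. Hsp90ab1 had the widest of the 10, from -1.41 to 1.19. These 4 intervals include 0, and with 3 pools per group they also leave room for differences between the sexes up to their bounds. The interval of Dnaja1, from 0.0014 to 1.10, left out 0, but it is not adjusted for the number of probes tested. For Hspb1 after dexamethasone, the 3 female arrays (-0.34 to 0.29) lay below the 3 male arrays (0.56 to 0.96), and the difference was -0.91 ± 0.33 (adjusted p = 0.215). The brightest Hspa8 probe was also lower on the 3 female arrays (6.54 to 6.88) than on the 3 male arrays (6.93 to 7.38), by -0.43 ± 0.18 (adjusted p = 0.293). Dnaja1 separated the other way, with 5.66 to 5.93 on the female arrays and 5.26 to 5.64 on the male arrays, a difference of 0.38 ± 0.17 (adjusted p = 0.334). Non-overlap of this kind, 1 member higher and 2 lower in females, was found for 11.3% of all genes in the higher and 12.465% in the lower direction.

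Several members stood apart on 1 slide. On the arrays of slide 5 the level minus its group mean averaged 0.93 higher for Hsp90ab1 probe 1 than on the other arrays, 0.41 higher for Hspe1 and 0.31 higher for Hsf1. It averaged 0.52 lower for Hsph1 and 0.24 lower for Hspa1a. The deviations of Hsp90ab1 and Hspe1 from their group means had a correlation of 0.95 over the 12 arrays, and those of Hsph1 and Hspe1 one of -0.76. These are descriptions over arrays that share slides, and what made slide 5 differ was not tested. Without the 4 arrays of slide 5, 6 of 10 members were called higher in females and 4 of 10 in males, where Hsf1 was lost (0.58, adjusted p = 0.0503). In that fit 30.5% of all genes were called in females and 18.0% in males.

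**Figure D3:**
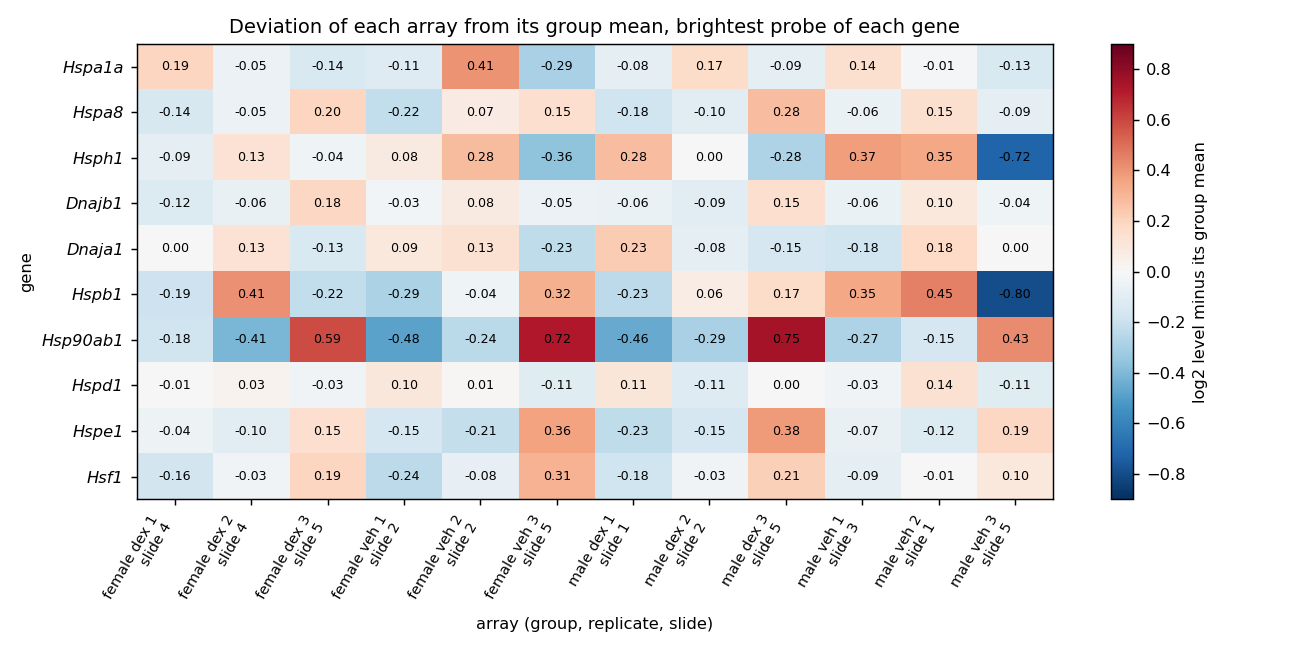
Level of each gene's brightest probe on each array minus the mean of its group (colour and printed value, log2), for the 12 arrays in columns with their slides and the 10 genes in rows. The 4 slide 5 columns are red for Hsp90ab1, Hspe1 and Hsf1, and Hspd1 stays within 0.14 of its group means throughout.

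The promoters of the members were taken from the RefSeq table for the rat assembly GRCr8 as 250 bases before to 50 after the annotated start. Of the members, 9 have an entry there. A heat shock element was searched as GAANNTTCNNGAA on both strands, where N is any base, which is 3 alternating units, and in its shorter forms GAANNTTC and TTCNNGAA of 2 units, which every 3-unit match also contains. The 3-unit form was found in 5 of the 9 promoters (Hspa8, Hsph1, Dnaja1, Hspd1 and Hspe1), against 0.798% of 33469 rat promoters of that table. GAANNTTC was found in 7 of 9 (8.59% of all promoters) and TTCNNGAA in 5 of 9 (8.77%). Hspa8 held a 3-unit match at 2 places, beginning at -213 and -55 from the start. Hspd1 and Hspe1 share 1 site of 4 units (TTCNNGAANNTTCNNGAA), a form present in 10 promoters of the table (0.0299%), and it begins at -65 from the start of Hspe1. All heat shock element matches of these genes lie in that site, so each count above takes 1 site for 2 promoters.

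The upstream 250 bases of 4 members are shown, each 5′ to 3′ on the strand of its gene, so that the matches can be seen. Hspa1a, Hspa8 and Hspe1 were called in both sexes and Hsph1 in females alone. Dnajb1 and Hspd1, whose stretch overlaps with that of Hspe1, were also called in at least 1 sex and are not shown. Capitals mark the GAA and TTC units of each match of 2 or more units, and in Hspa1a the outer bases of the match named next:
Hspa1a (chr20:3859506-3859755, plus strand): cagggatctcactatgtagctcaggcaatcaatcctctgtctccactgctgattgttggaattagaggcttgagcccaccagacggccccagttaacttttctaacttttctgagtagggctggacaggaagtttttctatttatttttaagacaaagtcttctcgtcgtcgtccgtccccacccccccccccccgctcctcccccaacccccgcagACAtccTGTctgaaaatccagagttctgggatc
Hspa8 (chr8:50080264-50080513, plus strand): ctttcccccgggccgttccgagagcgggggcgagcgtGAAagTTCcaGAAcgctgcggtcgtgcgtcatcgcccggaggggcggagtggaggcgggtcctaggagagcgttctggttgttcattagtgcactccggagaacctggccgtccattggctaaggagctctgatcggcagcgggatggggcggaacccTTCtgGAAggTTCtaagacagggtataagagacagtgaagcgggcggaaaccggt
Hsph1 (chr12:10427118-10427367, plus strand): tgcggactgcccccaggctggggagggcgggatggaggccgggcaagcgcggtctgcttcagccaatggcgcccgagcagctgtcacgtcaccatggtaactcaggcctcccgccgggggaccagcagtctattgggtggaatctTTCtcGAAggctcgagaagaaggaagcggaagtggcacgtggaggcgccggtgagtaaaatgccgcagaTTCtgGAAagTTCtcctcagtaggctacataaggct
Hspe1 (chr9:64084077-64084326, plus strand): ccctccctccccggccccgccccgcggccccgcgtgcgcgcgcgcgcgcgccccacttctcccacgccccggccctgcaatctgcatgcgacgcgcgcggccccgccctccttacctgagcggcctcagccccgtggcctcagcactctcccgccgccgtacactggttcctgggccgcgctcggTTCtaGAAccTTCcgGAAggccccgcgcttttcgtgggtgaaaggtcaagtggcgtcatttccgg
The core of a glucocorticoid receptor element, ACANNNTGT, was found in 1 of the 9 promoters, that of Hspa1a, against 6.86% of all promoters. The full palindrome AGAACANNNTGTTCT was found in 0 of the 9 and in 5 of the 33469 (0.0149%). Of the 5 genes with a 3-unit match, 4 were called in at least 1 sex (Hspa8, Hsph1, Hspd1 and Hspe1) and Dnaja1 was not. Hspd1 and Hspe1 enter this count through the 1 site that they share. Of the 4 with no 3-unit match in this window, Hspa1a and Dnajb1 were called in at least 1 sex and Hspb1 and Hsp90ab1 were not. The windows of Hspa1a and Hsp90ab1 held neither 2-unit form. Only 300 bases around 1 annotated start of each gene were searched, so elements elsewhere were not seen. The Hspa1a start used here lies downstream of the start of Hspa1l (window chr20:3860174-3860473), a neighbour on the minus strand. This window may therefore not hold the promoter that Hspa1a uses. Whether matches go with the response was not tested.

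**Figure D4:**
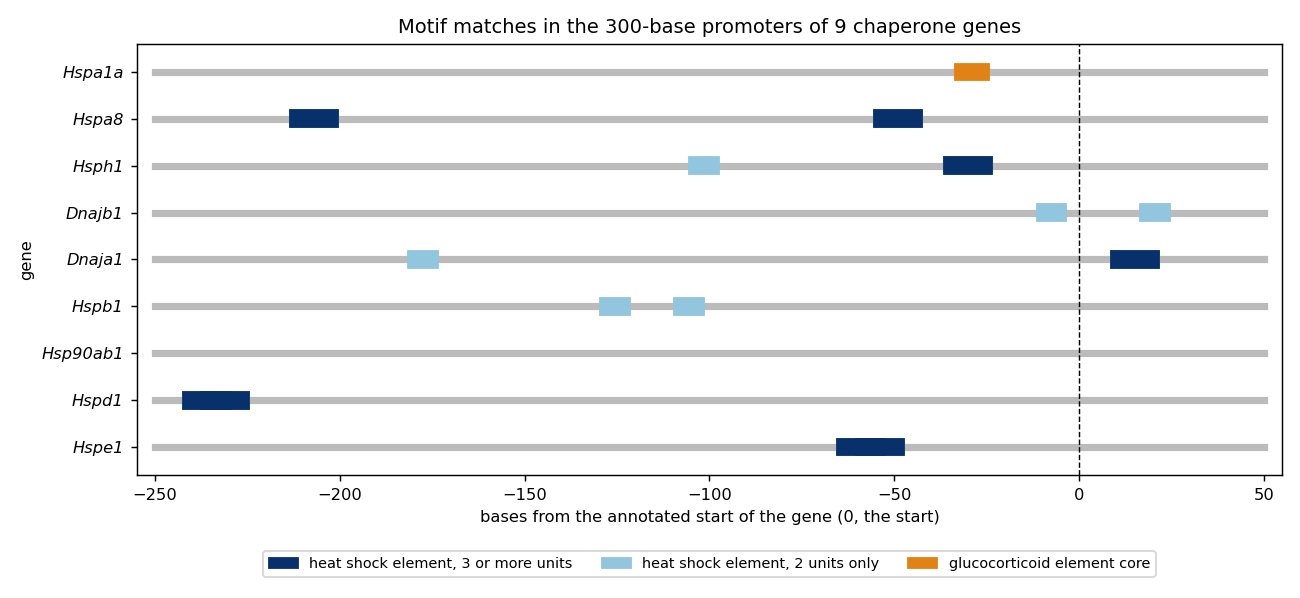
Position of motif matches in the 300-base promoters of 9 members (rows), in bases from the annotated start (dashed line). Dark blue boxes are heat shock elements of 3 or more units, light blue those of 2 units only, and orange the core of a glucocorticoid element. Dark boxes stand in the rows of Hspa8, Hsph1, Dnaja1, Hspd1 and Hspe1.

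Beyond the 10 genes, the cytosolic chaperonin TRiC and the HSP90 co-chaperones were called in the higher direction alone in both sexes. Their counts stand beside 12.3% of all genes called higher in females and 9.64% in males. TRiC, a ring of CCT subunits that folds actin and tubulin, and its partner prefoldin had 7 of 12 measured genes called higher in females and 5 of 12 in males, and 0 lower, with medians of 0.65 in females and 0.46 in males. The largest were Cct6a (1.45 ± 0.41), Cct5 (1.12 ± 0.18), Cct7 (0.99 ± 0.33) and Cct2 (0.86 ± 0.16) in females, and Cct2 (0.86 ± 0.16), Cct3 (0.77 ± 0.20), Cct5 (0.61 ± 0.18) and Cct8 (0.61 ± 0.16) in males. All of the called genes of this list, Tcp1 included, encode subunits of the CCT ring, and no prefoldin gene was called.

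HSP90 and its co-chaperones had 8 of 17 called higher in females and 6 of 17 in males, and 0 lower, with medians of 0.35 in females and 0.26 in males. Fkbp5, the immunophilin that tunes the glucocorticoid receptor, is on this list and among the check genes above (4.54 ± 0.20 in females and 4.17 ± 0.18 in males). Cdc37l1, a relative of the kinase co-chaperone Cdc37, was higher by 3.05 ± 0.15 in females and 2.86 ± 0.15 in males. Chordc1, an HSP90 partner, was higher by 1.15 ± 0.17 in females and 0.91 ± 0.17 in males. Hsp90aa1, the inducible HSP90 alpha, was called in females (1.25 ± 0.40, adjusted p = 0.0449) and had 0.77 ± 0.40 in males (adjusted p = 0.224). Ahsa1, which speeds the HSP90 ATPase, was higher by 0.83 ± 0.15 in females and 0.68 ± 0.15 in males.

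Mitochondrial chaperones and proteases other than Hspd1 and Hspe1 had 8 of 15 called higher and 0 lower in females. In males 1 of 15 was called higher and 1 lower, and the medians were 0.51 in females and 0.18 in males. Over all genes, 12.3% were called higher and 12.8% lower in females, and 9.64% and 11.7% in males. Dnajc11 was called higher in both sexes (1.28 ± 0.15 in females and 1.43 ± 0.15 in males), and Hscb, which serves iron-sulfur assembly, was called lower in males (-0.59 ± 0.14). In females Dnaja3, the mitochondrial HSP70 partner, was higher by 1.15 ± 0.25, Dnajc30 by 1.11 ± 0.32 and the protease subunit Afg3l2 by 0.69 ± 0.20. Hspa9, the mitochondrial HSP70, had 0.46 ± 0.25 in females and 0.58 ± 0.25 in males and was not called. For the female minus male difference of the dexamethasone effect, 0 of the 15 genes were called, with a median of 0.19. Drug and slide cannot be fully told apart in females here either. Whether the number of calls differs between the sexes was not tested.

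The remaining lists had calls in both directions or few of them. Their counts stand beside the 25.1% of all genes called in females and 21.3% in males. Among 19 other J proteins, 3 were higher and 1 lower in each sex, a share no larger than that over all genes. The lower one was Dnajc12 in both (-3.03 ± 0.23 in females and -2.94 ± 0.23 in males), and Dnajc7, a co-chaperone of HSP70 and HSP90, was higher in both (1.45 ± 0.14 in females and 1.06 ± 0.14 in males). Dnaja2 and Dnajc2 in females (0.98 ± 0.22 and 0.58 ± 0.17) and Dnajb6 and Dnajc2 in males (0.75 ± 0.17 and 0.69 ± 0.17) made up the rest. Of 8 other HSP70 genes, Hspa13 was higher in both sexes (1.45 ± 0.20 in females and 1.35 ± 0.20 in males) and Hspa4l lower in both (-1.19 ± 0.38 and -1.42 ± 0.38). Of 7 other small heat shock genes, 1 was called in each sex, Cryab, encoding alpha B crystallin (0.90 ± 0.14 in females and 0.51 ± 0.14 in males).

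Among 9 exchange factors and regulators of HSP70, Bag3 was called higher in females (0.64 ± 0.16) and Bag4 lower in males (-0.78 ± 0.23). Of 6 other heat shock factors and their regulators, the RNA helicase Ddx39b was higher in both sexes (1.03 ± 0.20 in females and 0.79 ± 0.20 in males), the deacetylase Hdac6 lower in both (-0.60 ± 0.17 and -0.90 ± 0.17), and Hsf4 lower in females (-1.02 ± 0.25). Chaperones of the endoplasmic reticulum had 1 of 14 called in each sex, Hsp90b1, encoding GRP94 (0.61 ± 0.14 in females and 0.59 ± 0.14 in males). Their median was 0.36 in females and -0.10 in males.

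**Figure D5:**
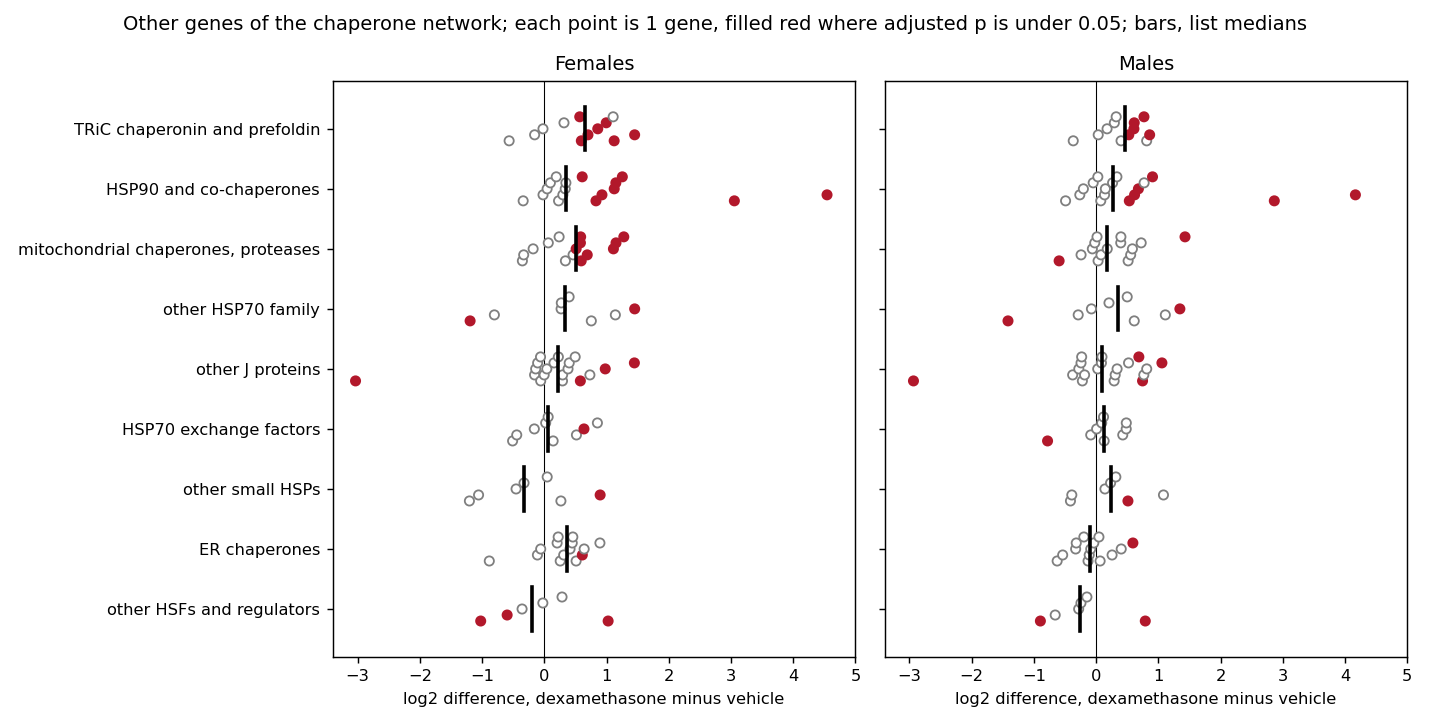
Log2 difference between dexamethasone and vehicle livers (horizontal axis) for the measured genes of 9 further lists of chaperone genes (rows), in females (left) and males (right). Each point is 1 gene, filled red where it was called, and the bars are list medians, which are highest for TRiC and prefoldin in both panels (0.65 and 0.46).

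Stress genes of other kinds were called in both directions, as were all genes, of which 25.1% were called in females and 21.3% in males. Of 15 immediate early genes, 1 was higher and 3 lower in females, and 2 higher and 2 lower in males. Egr1 and Junb, transcription factors switched on by growth signals, were lower in both sexes (Egr1 by -2.0 ± 0.36 in females and -2.72 ± 0.36 in males, Junb by -1.67 ± 0.40 and -1.65 ± 0.40). Nr4a1 was lower (-1.03 ± 0.25) and Jun higher (1.17 ± 0.30) in females, and Btg2 (1.34 ± 0.36) and Fosl2 (1.13 ± 0.33) were higher in males. Of 12 genes of ubiquitin and general stress responses, 1 was higher and 2 lower in females, and 2 were higher and 2 lower in males. Gadd45b rose in both sexes (3.53 ± 0.38 and 4.39 ± 0.38) and Ppp1r15a in males (1.53 ± 0.25), while the autophagy receptor Sqstm1 (-1.15 ± 0.15 and -1.21 ± 0.15) and Ddit3 (-0.53 ± 0.15 and -0.59 ± 0.15), a mark of endoplasmic reticulum stress, were lower in both.

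Some markers of other cell types were called after dexamethasone, where 25.1% of all genes were called in females and 21.3% in males. Outside the lymphocyte and neutrophil lists, most measured markers of each type were not called in either sex. Summed levels are given on the linear scale, where 1 is the 75th percentile of the array, and bright probes weigh most in them. The sum of the 6 of 10 lymphocyte markers that passed the filter was 0.691 to 0.846 on the dexamethasone arrays of females, against 2.59 to 4.43 on the vehicle arrays, and 0.80 to 0.90 against 2.76 to 3.28 in males. Gzma and Cd3g, well above background on all 12 arrays, were called lower in both sexes (Gzma by -2.41 ± 0.23 in females and -1.97 ± 0.23 in males, Cd3g by -1.62 ± 0.32 and -1.33 ± 0.32). The other 4 were below that limit on some or all dexamethasone arrays, and their own differences are not read as results. They are part of the sum, so the lymphocyte sum is given as a description only. Cd3e, Ms4a1 and Ptprc were among those with no named probe that passed. For neutrophils, 3 of 7 markers passed and summed to 0.10 to 0.142 after dexamethasone and 0.561 to 2.46 after vehicle in females, and to 0.0919 to 0.240 and 0.467 to 0.825 in males. S100a8 and S100a9 were well above background on all 6 vehicle arrays and on 2 of 6 dexamethasone arrays each. They passed the filter through the vehicle groups, and Csf3r was well above background on 6 of the 12 arrays. No result is therefore drawn from the neutrophil sum. Elane, Mmp8, Mpo and Ngp had no named probe that passed. Bile duct markers, all 7 measured, summed to 141 to 171 after dexamethasone and 381 to 689 after vehicle in females, and to 75.3 to 129 and 242 to 347 in males. Nearly all of that sum is Krt18, at 7.26 on the log2 scale after dexamethasone and 8.91 after vehicle in females, and 6.55 and 8.14 in males. Krt18 was called lower in both sexes, Krt7 in females and Krt8 in males, which leaves 5 of 7 not called in each sex. Endothelial markers, 6 of 8 measured, summed to 10.9 to 25.4 and 42.9 to 69.9 in females, and to 23.5 to 31.6 and 35.2 to 48.7 in males, most of it Kdr after vehicle. Among them Lyve1 was called higher in both sexes and Kdr lower in females. Of 10 macrophage markers, Aif1 and Tyrobp were called lower in both sexes, and of 7 measured stellate cell markers, Lrat and Pdgfrb were lower in both and Des in females. Hepatocyte markers, all 10 measured and among the brightest probes, had 1 called higher (Cps1) and 1 lower (Apob) in females and 0 in males. In bulk liver RNA, fewer cells of a type and less RNA per cell cannot be told apart, and the part of these shifts in the chaperone differences was not tested.

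The genes whose level followed each member most closely over the 12 arrays were found among the genes named through RefSeq. Hspa1a was closest to Tsc22d3, the glucocorticoid-induced leucine zipper gene used above as a check (Pearson r = 0.993), then to Mif4gd (0.989) and Slc4a8 (0.989). Hspa8 was closest to Dhx30 (0.987), Tubb4b (0.983) and its own pseudogene Hspa8-ps27 (0.981). Hspd1 was closest to Dpy19l4 (0.989), the TRiC subunit gene Cct2 (0.988) and Slc25a15 (0.987), and Hspe1 to Gatd3a (0.994), Wasl (0.988) and Rps9 (0.987). Hsph1 led with Sec23b (0.969), Dnajb1 with Prpf19 (0.968) and Hsf1 with Ube2s (0.973), and Cct3 (0.968) was among the 3 genes closest to Hsf1.

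The members that were not called had other neighbours. Hsp90ab1 was closest to Pdap1 (0.990), Zfp106 (0.980) and Ccdc59 (0.979), a likeness that includes the shift on slide 5. Dnaja1 was closest to Pm20d1 (0.943), and Hspb1 to Cxcr4 (0.889), Ak1 (0.879) and Jpt1 (0.850), the weakest likeness of the 10. These correlations run over 12 arrays that share drug state, sex and slide, and are given as a description.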

How the data were processed

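Liver RNA of 4 groups of rats was measured on 12 single-colour arrays, 3 per group. The probe intensity values were made by the authors with Agilent Feature Extraction 9.1, per the submitters' processing notes, with its spatial and multiplicative detrending switched on, per the file headers. The authors also deposited a table of log10 values per probe. Its scaling between arrays is not given in the sources used here, and it served as an alternative (column medians of 1.49 to 1.52, correlation of at least 0.996 with the scanner values).

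The deposited intensity values were turned into log2 and each array's 75th percentile was subtracted. Outlier-flagged spots (4 to 83 per array) were left out, spots of 1 probe were averaged, and probes well above background on at least 3 arrays with at least 2 usable arrays per group were kept. Differences were tested with limma 3.58.1 in R 4.3.3, with all 12 arrays in 1 fit and Benjamini-Hochberg adjustment over 28173 probes, and an adjusted p under 0.05 was called. A gene was counted by its brightest probe. Replicate numbers were checked as pairs: deviations from group means correlated by 0.0055 to 0.358 between arrays numbered 1, 0.0072 to 0.351 for number 2 and 0.210 to 0.595 for number 3, which share slide 5, so not every pair passed 0.1 and the number was not used as a block. Probe names were updated through RefSeq for 20375 of 41012 probes and kept as in the files for 20637.

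P-values measure the spread between arrays of pools, which includes differences between slides. The members and the lists were chosen with earlier results of these data known. Besides every member, the text names up to 4 called genes with the largest difference per list and contrast, 4 check genes, and the 3 genes most correlated with each member. Promoters came from RefSeq (GRCr8) and probe overlaps were aligned with Biopython 1.88. Other background corrections, normalizations, filters, blocks and omitted arrays were tried as alternatives. Precision is limited by 3 arrays per group.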

Additional observations from a re-analysis of the deposited data

How the results depend on the processing

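The counts of called members were recomputed under 28 other settings for each sex's dexamethasone effect. With slide as a fixed block, 3 of 10 members were called in females in place of 6, a fit in which 13.6% of all genes were called in place of 25.1%. In every other setting the count was within 1.5 times of the 6 in females and 5 in males, and for the 3 comparisons of the sexes it was 0 throughout. Leaving out 1 array at a time gave 5 to 6 in females and 4 to 5 in males, and 0 for the comparisons of the sexes. With a replicate block 7 were called in females and 6 in males, a fit in which 32.9% of all genes were called in females and 27.5% in males. No member that was called changed direction. Of the 290 single values in females and 300 in males, 8 and 11 lost the call, 3 and 9 gained it, and 8 and 11 moved. Moved means that an uncalled value changed sign, or a value within 1 slide moved by more than the SD between arrays. With median centring, quantile normalization, kept flagged spots, the mean of all probes of a gene or the brightest probe alone, 6 were called in females and 5 in males. Leaving out the 4 arrays of slide 5 was chosen after seeing the data. The number of arrays and, for the dimmer probes such as Hspa1a probe 2, signal near background limit the precision.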
